A study of Caenorhabditis elegans with 15 samples.

Results

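Rapamycin was given to eat-2 mutants and to wild-type worms, and the question taken up here is which genes responded differently in the 2 strains. The comparison is the strain by rapamycin interaction, the response to rapamycin in N2 (rapamycin minus vehicle) minus the response in eat-2 mutants (rapamycin minus vehicle), computed for every probe set on the log2 scale. It was read from 12 of the 15 arrays of the series, those of the 4 groups that carry it, and the other 3 arrays hold N2 worms on another drug. A positive interaction means that the response in N2 lay above that in eat-2, and a value of 1 is a 2-fold difference between the responses.

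RNA of whole Caenorhabditis elegans was hybridised to Affymetrix C. elegans arrays in 4 groups of 3: the Eat-2 mutant on rapamycin in 2% DMSO, the Eat-2 mutant on 2% DMSO alone (vehicle), N2 Wildtype on rapamycin in 2% DMSO, and N2 Wildtype on 2% DMSO alone. All worms were synchronised, grown at 20 °C and moved at the L4 moult to plates that held the drug or vehicle, and were collected 72 h later as young adults. Whether the 3 arrays of a group came from separate cultures is not given in the sources used here, so a p-value measures only the spread between these samples. The lifespan plates of the study held a drug that blocks egg production. For the array worms its use is not stated.

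Rapamycin inhibits the TOR kinase, which couples nutrient supply to growth, protein synthesis and autophagy. The eat-2 gene encodes a nicotinic acetylcholine receptor subunit at the pharyngeal muscle, and mutants pump slowly, eat less and are a common model of caloric restriction. A young adult hermaphrodite has completed its last moult, carries stored sperm, makes oocytes and feeds them with yolk, so a whole-worm array reads cuticle, gut, germline and embryos together, and fewer cells of a type and less RNA per cell cannot be told apart. The probe set of eat-2 itself had means of 5.63 ± 0.19, 5.35 ± 0.13, 5.34 ± 0.14, 5.48 ± 0.077 in eat-2 worms on rapamycin, eat-2 worms on vehicle, N2 on rapamycin and N2 on vehicle (SD, n = 3 each). These levels overlap. They do not check the strain label, since the sources used here describe the receptor as lost in this strain without saying whether its transcript is lowered.

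The N2 vehicle arrays differed from each other more than those of any other group, which bears on every value below. Correlations between arrays of a group over all probe sets were 0.991 to 0.998 for eat-2 on rapamycin, 0.991 to 0.998 for eat-2 on vehicle and 0.994 to 0.996 for N2 on rapamycin, but 0.967 to 0.982 for N2 on vehicle. The median SD of a probe set was 0.112, 0.111, 0.121 and 0.21 in the same order. N2 vehicle array 1 correlated at 0.988 with both eat-2 groups and at 0.94 with N2 on rapamycin, whereas array 2 correlated at 0.983 with N2 on rapamycin and at 0.953 and 0.968 with eat-2 on rapamycin and on vehicle. Array 3 lay between them (0.968, 0.983 and 0.961). The labels were kept. Whether any of these arrays was exchanged with a sample of another group was not tested, and it bears on what every N2 response means. Of 195 named probe sets with a called interaction, 24, 5 and 30 lost the call without N2 vehicle array 1, 2 and 3. The array also carries 77 control probe sets, 15 of them for worm genes and 45 for bacterial and phage transcripts of the kind added to a sample to follow labelling and hybridisation. Of the 45, 9 had an interaction at an adjusted p under 0.05, all 9 positive (0.36 to 0.52), and 42 had a positive value, with a median of 0.43 and a highest of 1.15. None of the 15 worm controls was called (median 0.06). Positive interactions of that size in worm genes are thus no larger than those of added transcripts, and the part of this in the split of calls by direction was not tested.

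Of 22548 probe sets, 5507 (24.4%) had an interaction at a Benjamini-Hochberg adjusted p under 0.05 in limma, 2788 (12.4%) with the N2 response above the eat-2 response and 2719 (12.1%) with it below. The study called genes at a change over 2-fold with an unadjusted p under 0.05, and by that threshold 3081 (13.7%) were called, 1897 above (8.41%) and 1184 below (5.25%). Both rules together gave 2565 (11.4%), 1577 above (6.99%) and 988 below (4.38%). Leaving out 1 array at a time gave 3267 (without N2 rapamycin array 3) to 8513 (without N2 vehicle array 2) calls at the adjusted p, and 2448 (without N2 vehicle array 1) to 4272 (without N2 vehicle array 2) at the study's threshold. The direction split depended on scaling: 50.6% of calls at the adjusted p lay above, against 30% once each array was centred on its median, and 61.6% against 43.3% at the study's threshold. Centring set the median interaction of all probe sets at -0.23, against -0.04 without it.

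**Figure D1:**
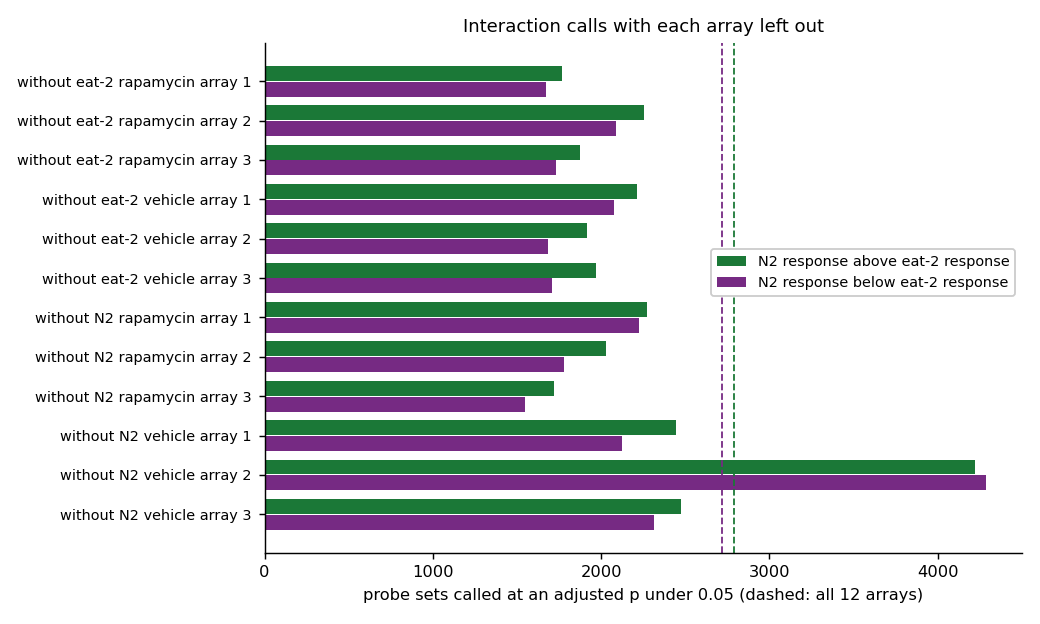
Number of probe sets with an interaction at an adjusted p under 0.05 (x axis) when each of the 12 arrays was left out in turn (y axis), split by direction, with the counts over all 12 arrays as dashed lines. Leaving out N2 vehicle array 2 gave 8513 calls in all, and leaving out N2 rapamycin array 3 gave 3267.

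Among called probe sets, responses over 2-fold were found more often in N2 alone than in eat-2 alone or in both strains. Of the 2565 probe sets called by both rules, 2285 (89.1%) had responses of opposite sign, against 57% of all probe sets, 2079 (81.1%) had the larger response in N2, against 63.2% of all, and in 2510 (97.9%) the strains lay farther apart on rapamycin than on vehicle, against 81.1% of all. The rule that chose these probe sets uses the same responses, so these shares describe them and test nothing. Over all probe sets the responses in the 2 strains, which share no arrays, correlated at -0.158 (Pearson) and -0.201 (Spearman), a value across genes that are not independent replicates. In 108 of the called probe sets (4.21%, against 1.01% of all) the level was over 2-fold lower on rapamycin in eat-2 only. In 56 it was over 2-fold higher in eat-2 only (2.18% against 0.789%). In 809 it was over 2-fold higher in N2 only (31.5% against 4.83%) and in 425 over 2-fold lower in N2 only (16.6% against 3.31%). A further 150 were over 2-fold lower on rapamycin in eat-2 and over 2-fold higher in N2 (5.85% against 0.75%). In 31 it was the other way round (1.21% against 0.155%). In 190 of the 5507 called at the adjusted p the response passed the test in both strains with opposite signs. Both tests use 1 variance per probe set, shared by the 4 groups. The wider spread of the N2 vehicle arrays (median SD 0.21 against 0.111 to 0.121) thus enters the eat-2 tests too, and is averaged down in the N2 tests. Same-direction responses over 2-fold in both strains were found in 1 called probe set upward (Y37D8A.3) and 1 downward (nlp-39), each 0.039%, against 0.213% and 0.222% of all. In 984 neither response reached 2-fold (38.4% against 88.7%).

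**Figure D2:**
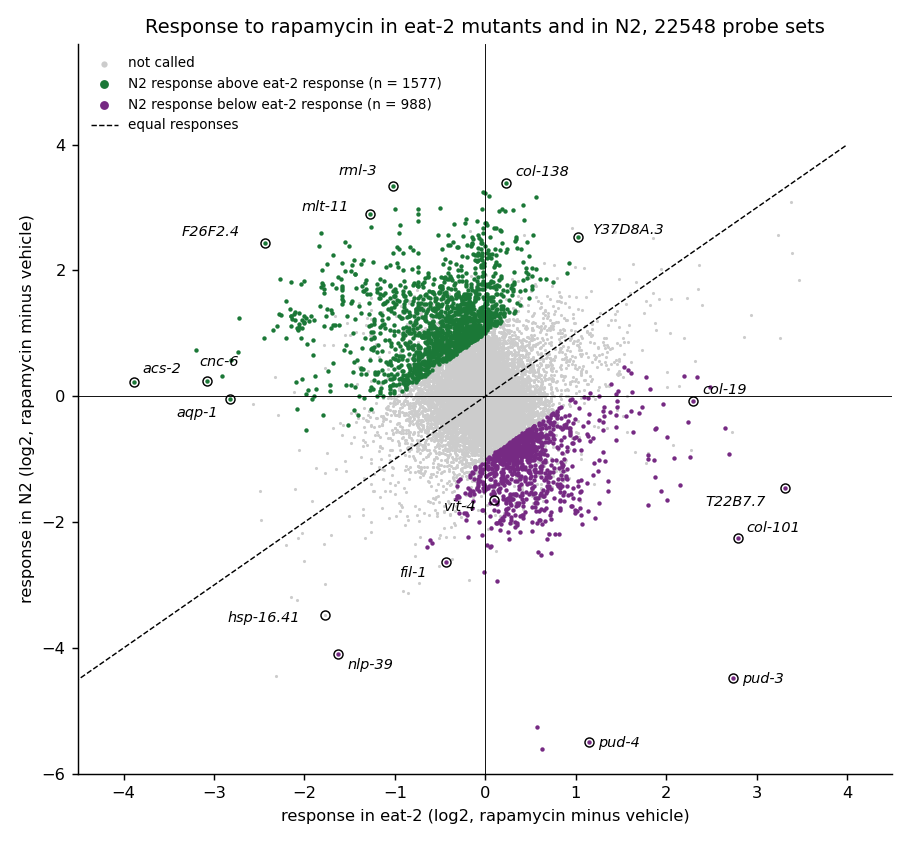
Response to rapamycin in eat-2 mutants (x axis) and in N2 (y axis), as log2 of rapamycin minus vehicle, for 22548 probe sets, with those called by both rules in colour and some named genes circled. Called probe sets with the N2 response above (1577) lie mostly at upper left and those with it below (988) at lower right of the dashed line of equal responses.

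Genes of the moult and of the apical extracellular matrix, the layer that epidermal cells lay down and shed when a new cuticle is made, stood out by a higher level on rapamycin in N2. Of 73 such genes, 28 had an interaction above and 0 below at the adjusted p, the median interaction was 0.50 against -0.04 over all genes, and the median responses were -0.02 in eat-2 and 0.45 in N2. Over all genes 2234 (13.1%) were called above and 2103 (12.3%) below of 17118, the shares against which the counts of each list are read, and among the moulting genes 38.4% lay above. With any 1 array left out 25 to 33 of the moulting genes lay above. The count was 24 after median centring.

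The protease inhibitor-like gene mlt-11, which is needed to shed the old cuticle, read 6.67, 6.10 and 7.23 on the eat-2 rapamycin arrays, 8.30, 7.84 and 7.69 on the eat-2 vehicle arrays, 10.61, 11.33 and 11.01 on the N2 rapamycin arrays and 7.87, 8.75 and 7.65 on the N2 vehicle arrays. Every eat-2 rapamycin array stood below every eat-2 vehicle array and every N2 rapamycin array above every N2 vehicle array, while the vehicle groups overlapped. Its interaction was 4.17 (SE 0.481, adjusted p = 0.00108), from responses of -1.28 in eat-2 (adjusted p = 0.0577) and 2.89 in N2 (adjusted p = 0.000453). The lipocalin gene lpr-3, whose product sits in the matrix that precedes the cuticle, read 8.01, 7.09 and 8.43 on the eat-2 rapamycin arrays, 9.23, 8.99 and 9.02 on the eat-2 vehicle arrays, 10.38, 10.67 and 10.74 on the N2 rapamycin arrays and 8.68, 8.67 and 8.04 on the N2 vehicle arrays. It fell in eat-2 (-1.24) and rose in N2 (2.13, adjusted p = 0.0398 and 0.000959), and here the vehicle groups did not overlap either. The interaction of lpr-3 was 3.37 (SE 0.416, adjusted p = 0.00142). Opposite responses were also seen in sym-1, a leucine-rich repeat protein of the extracellular matrix (-1.49 in eat-2, 1.99 in N2, interaction adjusted p = 0.00393), and in noah-1, a matrix protein with a zona pellucida domain (-1.33 and 1.80, adjusted p = 0.00555). The eat-2 responses of sym-1 and noah-1 did not pass the test (adjusted p = 0.0589 and 0.0834). A further probe set of mlt-11 (0.08, adjusted p = 0.688) and of sym-1 (0.36, adjusted p = 0.0513) was not called.

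Hedgehog-related and patched-related genes, a nematode family of secreted proteins and membrane proteins with roles in cuticle shedding, gave 30 above and 1 below of 81 (median interaction 0.35), and 20 to 38 above with any 1 array left out. Their eat-2 responses had a median of 0.03 and their N2 responses one of 0.33. The patched-related gene ptr-4 read 5.64, 6.10 and 6.29 on the eat-2 rapamycin arrays, 7.02, 6.57 and 6.65 on the eat-2 vehicle arrays, 9.83, 10.34 and 10.08 on the N2 rapamycin arrays and 6.78, 7.89 and 6.67 on the N2 vehicle arrays. All 3 N2 rapamycin arrays lay above the 9 others, and the interaction was 3.71 (SE 0.425, adjusted p = 0.00106). The warthog gene wrt-10 (2.63, adjusted p = 0.0189) and the ground-like gene grl-15 (2.47, adjusted p = 0.036) were also among the calls above, and ptr-2 (-1.20, adjusted p = 0.00493) was the 1 below, on 1 of its 3 probe sets. The nuclear receptor gene nhr-23, which drives moulting, had responses of 0.52 and 0.46 in eat-2 and N2 and an interaction of -0.06 (adjusted p = 0.878), and lin-42, the period homologue that paces the larval moults, had 0.42 (adjusted p = 0.106). The other probe set of lin-42 had the opposite sign (-0.2, adjusted p = 0.281).

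Cuticle collagens were called above and below at shares near those of all genes. Of 146 genes, 23 (15.8%) were called above and 20 (13.7%) below, with a median interaction of -0.14 and nearly equal median responses of 0.43 in eat-2 and 0.39 in N2. The counts ranged from 14 (without N2 rapamycin array 3; 15 without array 2) to 33 (without N2 vehicle array 2) above, and from 9 (without eat-2 vehicle array 2) to 37 (without N2 vehicle array 3) below, where 9 of the 12 arrays moved the count by over 1.5 times, and median centring gave 20 above and 39 below.

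One set of collagens was higher on rapamycin in N2 only. The gene col-138 read 6.05, 6.22 and 6.20 on the eat-2 rapamycin arrays, 5.82, 6.31 and 5.64 on the eat-2 vehicle arrays, 10.49, 10.08 and 11.05 on the N2 rapamycin arrays and 6.49, 7.89 and 7.09 on the N2 vehicle arrays. The N2 rapamycin arrays stood apart from all others and the eat-2 groups overlapped, with responses of 0.23 in eat-2 and 3.39 in N2 and an interaction of 3.15 (SE 0.473, adjusted p = 0.00302). The collagens col-49 (responses 0.56 and 3.16, interaction adjusted p = 0.00602) and col-38 (0.42 and 3.04, adjusted p = 0.0196) did the same.

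Another set was higher on rapamycin in eat-2 only. The gene col-19, an adult-specific collagen used as a marker of the adult cuticle, read 9.93, 10.70 and 9.88 on the eat-2 rapamycin arrays, 8.21, 7.81 and 7.58 on the eat-2 vehicle arrays, 8.50, 8.39 and 8.53 on the N2 rapamycin arrays and 9.54, 8.94 and 7.19 on the N2 vehicle arrays. It rose in eat-2 by 2.30 (adjusted p = 0.0275), had a response of -0.08 in N2, and had an interaction of -2.38 (SE 0.68, adjusted p = 0.0301), which was called in 15 of 24 settings of the analysis. The eat-2 rapamycin arrays lay above all 9 others. In col-143, col-95 and col-159 the eat-2 responses were 2.24, 2.01 and 2.34 and the N2 responses -0.41, -0.65 and 0.30 (interaction adjusted p = 0.0215, 0.0128 and 0.0376). The probe sets of col-95 and col-159 are of a type that can bind related genes. In col-101 the strains moved in opposite directions: it read 12.57, 12.71 and 12.33 on the eat-2 rapamycin arrays, 10.32, 9.45 and 9.49 on the eat-2 vehicle arrays, 8.67, 8.05 and 8.05 on the N2 rapamycin arrays and 11.88, 11.12 and 8.52 on the N2 vehicle arrays. It rose by 2.79 in eat-2 and fell by 2.25 in N2 (adjusted p = 0.0408 and 0.0285), and the interaction was -5.04 (SE 0.943, adjusted p = 0.00629), although the N2 vehicle arrays spread from 8.52 to 11.88 and overlapped those of N2 on rapamycin.

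**Figure D3:**
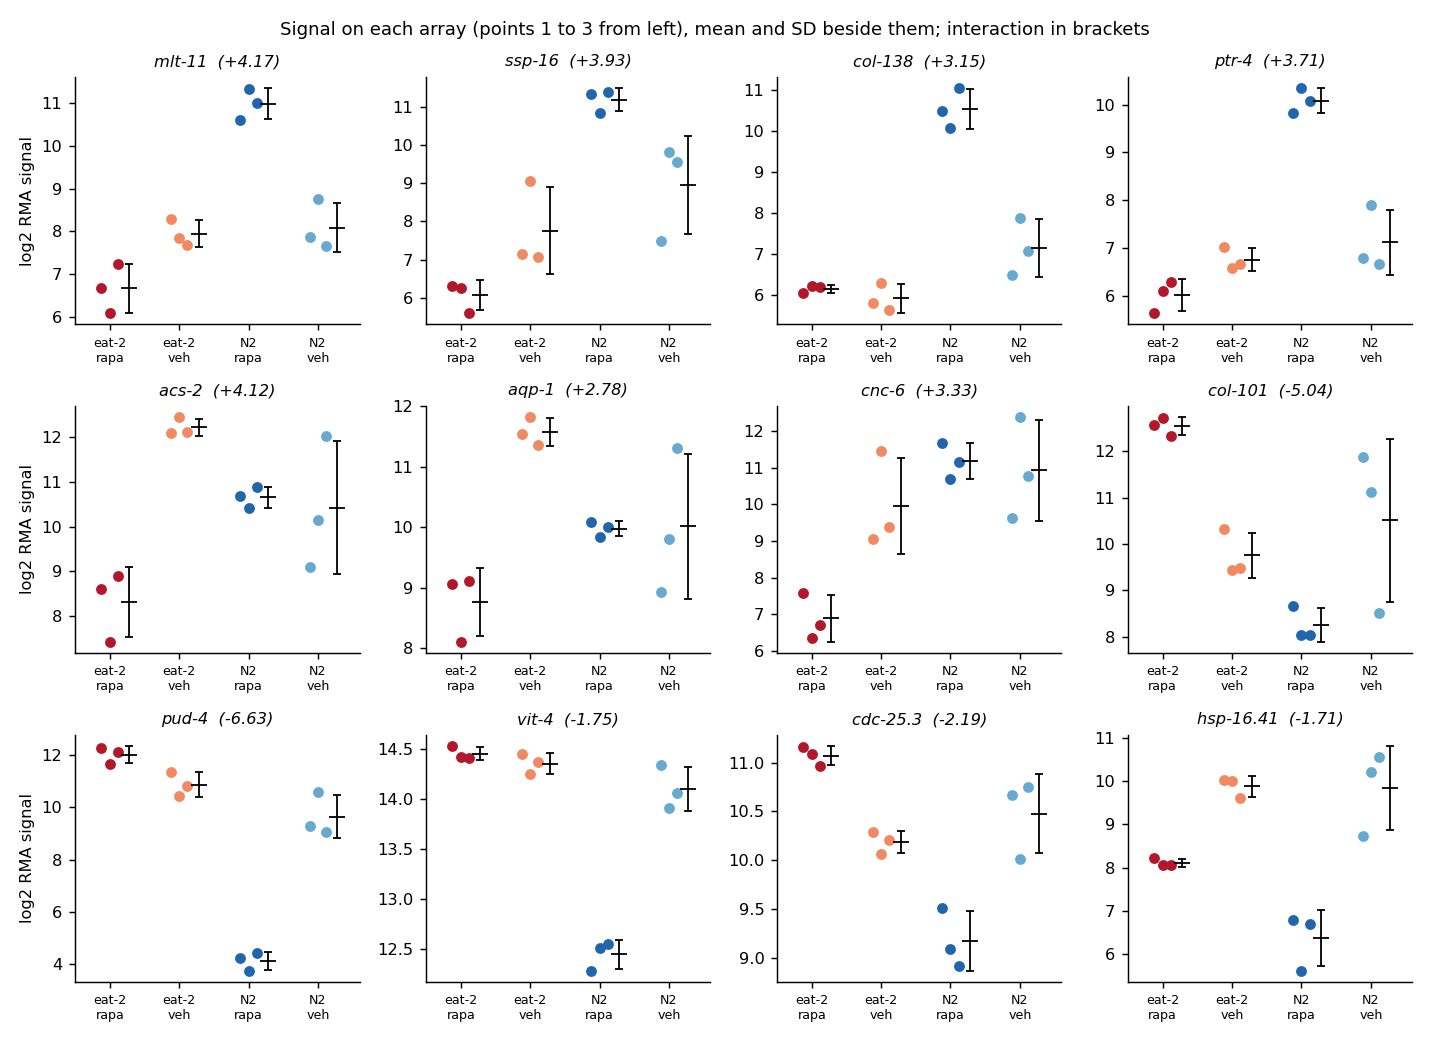
Log2 signal (y axes) of 12 genes on each of the 12 arrays, in eat-2 and N2 worms on rapamycin (rapa) or vehicle (veh), with group means and SDs as bars beside the points and the interaction in brackets. The panels show opposite responses (mlt-11, ssp-16, col-101), responses in N2 (col-138, ptr-4, vit-4), responses in eat-2 (acs-2, aqp-1, cnc-6) and the wide spread of the N2 vehicle arrays in several genes.

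Sperm genes gave the largest median interaction among the 39 gene lists apart from the 2 pud genes. Of 79 genes, 44 were called above and 1 below (spe-39, a trafficking factor that is expressed beyond sperm, -0.85), and the median interaction was 1.85, from median responses of -0.65 in eat-2 and 1.08 in N2. Some probe sets of the list can bind related genes, so these calls may not all be separate. The mean signal of the list was 6.97, 6.84 and 6.76 on the eat-2 rapamycin arrays, 7.32, 8.40 and 7.36 on the eat-2 vehicle arrays, 9.26, 8.94 and 9.28 on the N2 rapamycin arrays, and 7.44, 8.78 and 8.56 on the N2 vehicle arrays. On rapamycin every N2 array stood above every eat-2 array, while in each vehicle group 1 array departed from the others. With 1 array left out the count above was 16 (without N2 rapamycin array 3) to 55 (without N2 vehicle array 2). It was 23, 26 and 20 without eat-2 rapamycin arrays 1, 2 and 3, 27 without eat-2 vehicle array 2 and 24 without N2 rapamycin array 1.

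The small sperm-specific gene ssp-16 read 6.32, 6.27 and 5.61 on the eat-2 rapamycin arrays, 7.14, 9.07 and 7.06 on the eat-2 vehicle arrays, 11.33, 10.85 and 11.39 on the N2 rapamycin arrays and 7.48, 9.82 and 9.56 on the N2 vehicle arrays. The eat-2 rapamycin arrays were the lowest and the N2 rapamycin arrays the highest, and the interaction was 3.93 (SE 0.9, adjusted p = 0.0132), from responses of -1.69 in eat-2 (adjusted p = 0.154) and 2.24 in N2 (adjusted p = 0.0241). The major sperm protein gene msp-53, whose probe set can bind other members of that near-identical family, fell in eat-2 (-2.26, adjusted p = 0.043) and had a response of 1.29 in N2 (adjusted p = 0.103). The sperm phosphatase gene gsp-3, which shares that kind of probe set with its near copy gsp-4, had an interaction of 3.52 (adjusted p = 0.0155). The gene fog-3, which germ cells need to become sperm, read 7.20, 6.82 and 7.09 on the eat-2 rapamycin arrays, 6.70, 7.62 and 6.92 on the eat-2 vehicle arrays, 10.30, 10.41 and 10.35 on the N2 rapamycin arrays and 7.60, 8.86 and 8.05 on the N2 vehicle arrays. The N2 rapamycin arrays lay above all 9 others. It had a response of -0.05 in eat-2 and rose by 2.18 in N2 (adjusted p = 0.000925), and its interaction was 2.23 (SE 0.422, adjusted p = 0.00662).

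Genes outside these lists also took part in this crossover. F26F2.4, read by a probe set that can bind related genes, had 6.33, 6.08 and 6.07 on the eat-2 rapamycin arrays, 8.78, 8.75 and 8.26 on the eat-2 vehicle arrays, 11.96, 11.68 and 11.57 on the N2 rapamycin arrays and 8.25, 10.86 and 8.81 on the N2 vehicle arrays. The vehicle groups lay between those on rapamycin. It fell in eat-2 and rose in N2 by nearly equal amounts (-2.44 and 2.43, adjusted p = 0.0275 and 0.00646), which gave an interaction of 4.87 (SE 0.721, adjusted p = 0.00286). The secreted immunoglobulin-domain gene zig-4, which helps to hold axons in place, read 7.12, 7.08 and 7.43 on the eat-2 rapamycin arrays, 8.84, 8.27 and 8.32 on the eat-2 vehicle arrays, 10.12, 10.47 and 10.33 on the N2 rapamycin arrays and 7.92, 7.40 and 7.54 on the N2 vehicle arrays. Rapamycin and vehicle arrays did not overlap in either strain, the strains did not overlap on either medium, and zig-4 had the smallest adjusted p among the genes named by rule (interaction 3.95 (SE 0.261, adjusted p = 7.32e-05)). The lysozyme gene lys-3 (4.24, adjusted p = 0.0124), the adenine nucleotide translocator ant-1.4 (3.98, adjusted p = 0.00488), the cytochrome c gene cyc-2.2 (3.99, adjusted p = 0.0226), rml-3 (4.36, adjusted p = 0.000442) and B0024.4 (4.41, adjusted p = 0.00662) were among the highest interactions as well. In cyc-2.2 the mean of eat-2 worms on rapamycin was below 5.15, the level under which the dimmest 25% of probe sets lie, so the size of its difference is uncertain.

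Yolk, eggshell, oocyte and cell division genes went the other way, with lower levels on rapamycin in N2. Vitellogenins encode the yolk proteins made in the intestine. All 5 of those on the list, each with a probe set that names it alone, were called below. Their median interaction was -1.47, with median responses of 0.01 in eat-2 and -1.41 in N2. With 1 array left out 4 or 5 were called. The gene vit-4, whose probe set can bind its close relatives, read 14.53, 14.42 and 14.41 on the eat-2 rapamycin arrays, 14.45, 14.25 and 14.37 on the eat-2 vehicle arrays, 12.29, 12.51 and 12.55 on the N2 rapamycin arrays and 14.34, 13.91 and 14.06 on the N2 vehicle arrays. The N2 rapamycin arrays lay below all others, and the interaction was -1.75 (SE 0.166, adjusted p = 0.000602). For vit-5, vit-2 and vit-6 the eat-2 responses were 0.01, -0.12 and 0.01 and the N2 responses -1.47, -1.11 and -0.86 (interaction adjusted p = 0.00189, 0.0084 and 0.0124). The probe set of vit-5 can bind related genes as well, so the calls of vit-4 and vit-5 may not be separate. The gene vit-1 differed from the probe sets above: its interaction of -3.55 (SE 1.01, adjusted p = 0.0294) came from responses of 2.15 in eat-2 and -1.41 in N2, neither of which passed the test. A further probe set of vit-4, which can bind related genes too, had the signs of vit-1. Its responses were 1 in eat-2 and -0.65 in N2 (interaction -1.65, adjusted p = 0.0198). The yolk receptor of the oocyte, rme-2, had an interaction of -1.18 (adjusted p = 0.0146).

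Of 12 eggshell genes 9 were called below and 0 above (median interaction -1.04), and of 44 oocyte and germline genes 24 and 0 (median -0.72), with 9 to 11 and 18 to 30 below when 1 array was left out. The gene egg-3, which is needed to form the eggshell at fertilisation, read 11.60, 11.60 and 11.73 on the eat-2 rapamycin arrays, 11.33, 11.11 and 11.20 on the eat-2 vehicle arrays, 10.25, 9.74 and 9.87 on the N2 rapamycin arrays and 11.48, 10.79 and 11.03 on the N2 vehicle arrays. The eat-2 rapamycin arrays were the highest and the N2 rapamycin arrays the lowest. It had a response of 0.44 in eat-2 (adjusted p = 0.181) and fell by 1.15 in N2 (adjusted p = 0.00151), with an interaction of -1.58 (SE 0.247, adjusted p = 0.00338). The chitin synthase chs-1 (-1.43) and the egg surface receptor egg-1 (-1.48) were called as well, as were the germ granule gene meg-1 (-1.82), the maternal regulator mex-1 (-1.67) and oma-2 (-1.57), a zinc finger protein of oocyte maturation (adjusted p = 0.00968, 0.0099, 0.00306, 0.00859 and 0.00662). Among 46 genes that the early embryo transcribes, 10 were called below and 1 above (sdz-3, 1.03, a gene near the dim end), and the count below was 5 to 24 when 1 array was left out, 24 of them without N2 vehicle array 2. The lowest was sdz-28, which had a response of 0.13 in eat-2 and fell by 2.94 in N2 (interaction adjusted p = 0.0317).

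Cell cycle and DNA replication genes gave 45 below and 1 above of 68, a median interaction of -0.78 and median responses of 0.11 in eat-2 and -0.67 in N2. With 1 array left out 26 to 52 were called below: 26 without eat-2 rapamycin array 3, 27 without eat-2 rapamycin array 1 or eat-2 vehicle array 2, 28 and 29 without N2 rapamycin arrays 3 and 2, and 52 without N2 vehicle array 2. The phosphatase gene cdc-25.3, which activates cyclin-dependent kinases, read 11.16, 11.09 and 10.97 on the eat-2 rapamycin arrays, 10.29, 10.06 and 10.21 on the eat-2 vehicle arrays, 9.51, 9.09 and 8.92 on the N2 rapamycin arrays and 10.67, 10.01 and 10.75 on the N2 vehicle arrays. The eat-2 arms did not overlap, nor did the N2 arms, and cdc-25.3 rose in eat-2 (0.89, adjusted p = 0.0321) and fell in N2 (-1.30, adjusted p = 0.00146), with an interaction of -2.19 (SE 0.278, adjusted p = 0.00162). The replication licensing factor cdt-1 (-0.21 in eat-2, -1.85 in N2) and the kinase gene cdk-4 (-0.13 in eat-2, -1.55 in N2) fell in N2 only, with interactions at adjusted p = 0.0275 and 0.0316. The 1 member above was cki-1, an inhibitor of cyclin-dependent kinases that holds cells out of division. It read 8.65, 8.86 and 8.51 on the eat-2 rapamycin arrays, 10.29, 10.39 and 9.85 on the eat-2 vehicle arrays, 10.47, 10.58 and 10.42 on the N2 rapamycin arrays and 9.66, 10.05 and 9.67 on the N2 vehicle arrays. The eat-2 rapamycin arrays were the lowest and the N2 rapamycin arrays the highest. It fell by 1.5 in eat-2 and rose by 0.7 in N2 (adjusted p = 0.00312 and 0.00929), and its interaction of 2.2 (SE 0.224, adjusted p = 0.000602) thus had the sign opposite to that of the rest of the list.

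**Figure D4:**
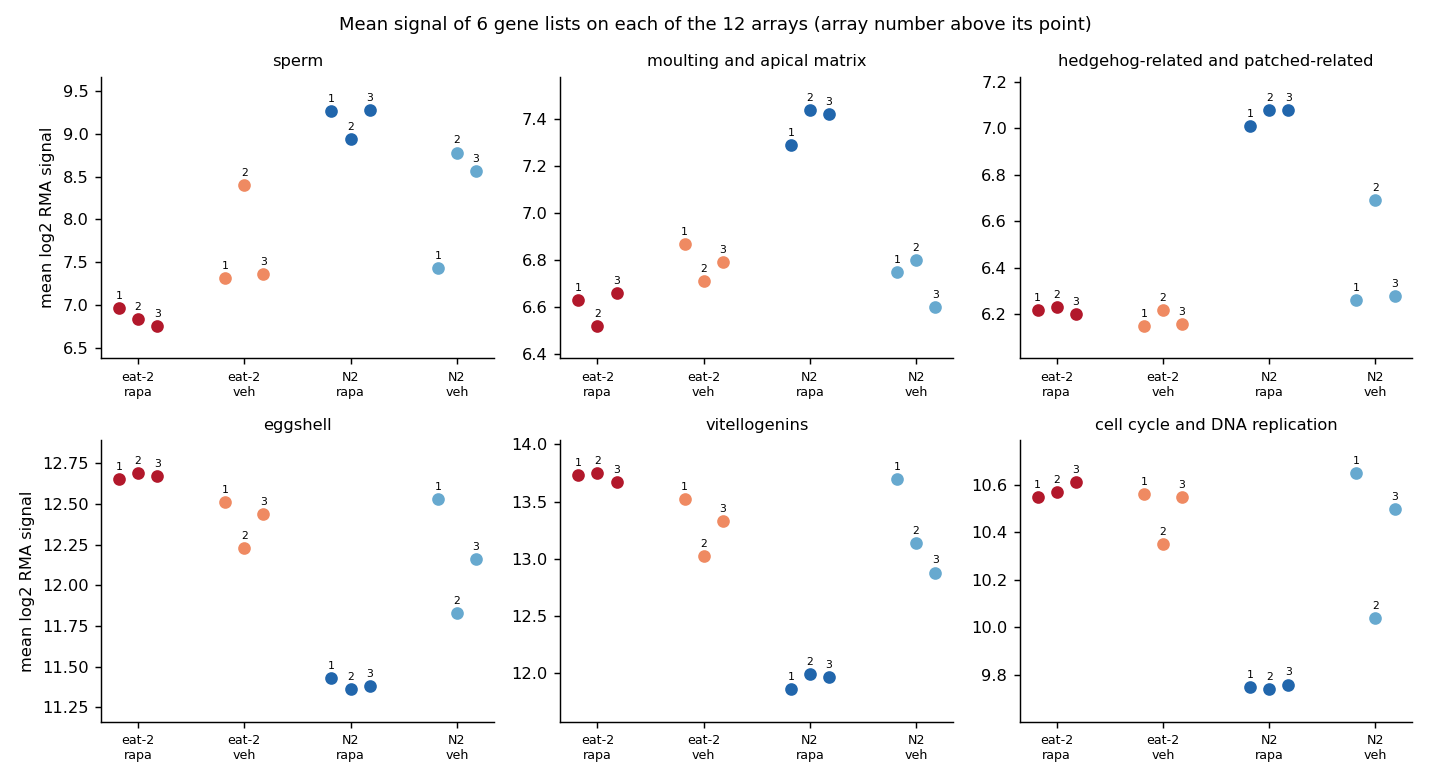
Mean log2 signal (y axes) of 6 gene lists on each of the 12 arrays, with the array number above its point, for eat-2 and N2 worms on rapamycin (rapa) or vehicle (veh). The N2 rapamycin arrays stand at the edge of every panel, above the rest for sperm, moulting and hedgehog-related genes and below it for eggshell, vitellogenin and cell cycle genes, and the N2 vehicle arrays are spread, with array 1 at 7.44 for sperm genes against 8.78 and 8.56.

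Some fasting and lipid genes had their response in the mutant. The acyl-CoA synthetase gene acs-2, which activates fatty acids for oxidation in mitochondria and is induced by fasting, had 2 probe sets. The first read 8.61, 7.44 and 8.91 on the eat-2 rapamycin arrays, 12.09, 12.43 and 12.11 on the eat-2 vehicle arrays, 10.68, 10.41 and 10.87 on the N2 rapamycin arrays and 9.10, 10.14 and 12.02 on the N2 vehicle arrays. All eat-2 vehicle arrays lay far above all eat-2 rapamycin arrays: acs-2 fell by 3.89 in eat-2 (adjusted p = 0.0107), while N2 had a response of 0.23 (adjusted p = 0.808) with vehicle arrays that spread from 9.10 to 12.02. The interaction was 4.12 (SE 0.858, adjusted p = 0.00933), and the other probe set gave 3.23 (SE 0.623, adjusted p = 0.00705). The glyoxylate cycle gene icl-1, which lets worms make sugar from fat, fell by 1.96 in eat-2 (adjusted p = 0.00481) and had a response of 0.10 in N2, with an interaction of 2.06 (SE 0.337, adjusted p = 0.00398). The aquaglyceroporin gene aqp-1, a glycerol channel of the intestine, read 9.06, 8.11 and 9.11 on the eat-2 rapamycin arrays, 11.54, 11.82 and 11.36 on the eat-2 vehicle arrays, 10.09, 9.84 and 10 on the N2 rapamycin arrays and 8.93, 9.81 and 11.31 on the N2 vehicle arrays. The eat-2 arms were far apart and the N2 arms overlapped. It fell by 2.82 in eat-2 (adjusted p = 0.0155) with a response of -0.04 in N2, and the interaction was 2.78 (SE 0.685, adjusted p = 0.0174).

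Over the lists that hold these genes the calls went both ways. Of 60 fatty acid oxidation genes 12 (20%) were called above and 7 (11.7%) below (median interaction -0.12), and of 34 lipase and fasting genes 8 (23.5%) and 5 (14.7%, median 0.04). When 1 array was left out, 3 to 11 of the oxidation genes were called below and 3 to 10 of the lipase and fasting genes above, with 10 of the 12 arrays moving either count by over 1.5 times. The fasting-induced lipase fil-1 moved in N2: it read 10.47, 10.31 and 10.78 on the eat-2 rapamycin arrays, 10.75, 10.94 and 11.19 on the eat-2 vehicle arrays, 7.64, 7.34 and 7.39 on the N2 rapamycin arrays and 9.65, 10.11 and 10.55 on the N2 vehicle arrays. The N2 rapamycin arrays lay below all 9 others. It had a response of -0.44 in eat-2, fell by 2.64 in N2 (adjusted p = 6.94e-05) and had an interaction of -2.2 (SE 0.303, adjusted p = 0.00207). Of 20 fatty acid synthesis genes 4 were called above and 0 below (median 0.20, but 0.02 after median centring), among them the elongase genes elo-7 (2.1) and elo-4 (1.74) and the fatty acid synthase fasn-1 (1.20, adjusted p = 0.00662, 0.00556 and 0.00707). The desaturase genes fat-5, fat-6 and fat-7 had interactions of 0.28, 0.60 and -1.62, none of which passed the test (adjusted p = 0.662, 0.212 and 0.183), and the eat-2 response of fat-7, 2.01, did not either (adjusted p = 0.0787).

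Other genes that fell in eat-2 only were the antimicrobial peptide gene cnc-6, the autophagy receptor sqst-1 and the extracellular superoxide dismutase sod-4. The signals of cnc-6 were 7.59, 6.36 and 6.71 on the eat-2 rapamycin arrays, 9.05, 11.46 and 9.38 on the eat-2 vehicle arrays, 11.67, 10.69 and 11.17 on the N2 rapamycin arrays and 9.63, 12.38 and 10.78 on the N2 vehicle arrays. The eat-2 arms did not overlap and the N2 arms did, the eat-2 response was -3.08 (adjusted p = 0.0406) and the interaction was 3.33 (SE 1.04, adjusted p = 0.0411), which passed in 13 of 24 settings. The responses of sqst-1, on a probe set that can bind related genes, were -1.16 in eat-2 and 0.08 in N2 (interaction adjusted p = 0.00518) and those of sod-4 were -0.89 and 0.28 (adjusted p = 0.0225). R07C12.1 (-3.20 and 0.74) had the same form, with an interaction of 3.94 (adjusted p = 0.022). C23G10.11 had an interaction of 3.96 (adjusted p = 0.00661), but its responses were over 2-fold in opposite directions (-2.72 in eat-2 and 1.24 in N2).

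Genes that rose in eat-2 only, beside the collagens, included the infection response gene irg-6 (2.48 in eat-2, 0.14 in N2), the C-type lectin clec-85 (1.73 and -0.17) and the aspartic peptidase asp-17 (1.31 and -0.31), with interactions at adjusted p = 0.0379, 0.0245 and 0.00444. The means of asp-17 were 9.26 ± 0.27, 7.95 ± 0.4, 4.92 ± 0.092, 5.23 ± 0.17 in eat-2 on rapamycin, eat-2 on vehicle, N2 on rapamycin and N2 on vehicle (± SD, n = 3 each). The strains did not overlap on either medium, and the N2 rapamycin mean lies in the dimmest 25% of probe sets, as do both vehicle means of irg-6.

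The lowest interactions belonged to pud-3 and pud-4, members of a nematode protein family first seen to rise with reduced insulin signalling. The gene pud-4 read 12.26, 11.64 and 12.10 on the eat-2 rapamycin arrays, 11.35, 10.42 and 10.81 on the eat-2 vehicle arrays, 4.24, 3.77 and 4.42 on the N2 rapamycin arrays and 9.28, 10.56 and 9.06 on the N2 vehicle arrays. The eat-2 rapamycin arrays were the highest and the N2 rapamycin arrays the lowest, and the vehicle groups overlapped. It had a response of 1.14 in eat-2 (adjusted p = 0.107), fell by 5.49 in N2 (adjusted p = 2.43e-05) and had an interaction of -6.63 (SE 0.53, adjusted p = 0.000228). The gene pud-3 read 12.31, 11.82 and 12.21 on the eat-2 rapamycin arrays, 10.57, 8.36 and 9.18 on the eat-2 vehicle arrays, 5.22, 4.91 and 5.04 on the N2 rapamycin arrays and 10.32, 11.17 and 7.10 on the N2 vehicle arrays. Its interaction was -7.21 (SE 1.23, adjusted p = 0.00453), with N2 vehicle arrays between 7.10 and 11.17. The N2 rapamycin means of both genes lie under 5.15, in the dimmest 25% of probe sets, so the sizes of these differences are uncertain, as is that of elo-7, for which both eat-2 means lie there. T13F3.6 rose in eat-2 and fell in N2 on both of its probe sets (-3.66 and -3.54, adjusted p = 0.00251 and 0.0018). T22B7.7 (-4.77), pugs-8 (-3.22) and F09C8.1 (-3.15) followed (adjusted p = 0.0145, 0.0121 and 0.0136). The glycerol-3-phosphate dehydrogenase gpdh-1, which makes glycerol under salt stress, had -3.44 (adjusted p = 0.0265), from responses of 1.94 in eat-2 and -1.5 in N2 that did not pass the test. The metallothionein gene mtl-2 had a response of -0.07 in eat-2 and fell by 1.99 in N2 (adjusted p = 0.000185, interaction -1.92 with adjusted p = 0.0026, on a probe set that can bind related genes), and mtl-1 had an interaction of 1.11 that did not pass the test (adjusted p = 0.104).

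The TOR pathway, whose kinase rapamycin inhibits, and the insulin pathway both govern growth and lifespan, and their genes were held in 1 list. It gave 5 calls above (15.6%) and 11 below (34.4%) of 32, with a median interaction of -0.25. The counts below were 2 to 15 when 1 array was left out, moved over 1.5 times by 10 of the 12 arrays, and 3 after cyclic loess scaling. The TOR kinase let-363 had means of 10 ± 0.14, 10.02 ± 0.094, 10.07 ± 0.06, 10.05 ± 0.0044 in eat-2 on rapamycin, eat-2 on vehicle, N2 on rapamycin and N2 on vehicle, and an interaction of 0.05 (SE 0.124, adjusted p = 0.801). The TORC1 partner daf-15 had -0.23 and the S6 kinase rsks-1 0.17 (adjusted p = 0.534 and 0.519). The TORC2 subunit rict-1 (-0.59), the Rag GTPase raga-1 (-0.51) and nprl-2 (-1.08), a part of the complex that restrains the Rag GTPases, were called below (adjusted p = 0.0444, 0.0325 and 0.00601), each of which fell on rapamycin in N2 (-0.56, -0.35 and -0.80). The call of rict-1 passed in 11 of 24 settings, and its other probe set had the opposite sign (0.36, adjusted p = 0.0589). In the insulin branch the kinase pdk-1 (-1.14) and the lipid phosphatase daf-18 (-0.98) were called below, and the kinase sgk-1 (0.74) above (adjusted p = 0.027, 0.0338 and 0.0146). The call of daf-18 passed in 12 of 24 settings, and 3 of the 5 probe sets of pdk-1 were not called (-0.21, -0.07 and -0.35, adjusted p = 0.221, 0.854 and 0.203). The receptor daf-2 had -0.14 (adjusted p = 0.526).

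Of 6 transcription factors chosen for their part in longevity and stress resistance, 3 were called above and 3 did not pass the test. The FoxA factor pha-4, which caloric restriction needs to extend life, read 6.81, 7.01 and 7.11 on the eat-2 rapamycin arrays, 7.64, 7.56 and 7.68 on the eat-2 vehicle arrays, 8.29, 8.76 and 8.66 on the N2 rapamycin arrays and 7.58, 8.23 and 7.39 on the N2 vehicle arrays. The rapamycin groups did not overlap, pha-4 had a response of -0.65 in eat-2 (adjusted p = 0.0834) and rose by 0.84 in N2 (adjusted p = 0.0109), and the interaction was 1.49 (SE 0.28, adjusted p = 0.00639). The autophagy regulator hlh-30 (1.17, adjusted p = 0.013, with 1 of its 3 probe sets not called at 0.30, adjusted p = 0.113) and the zinc finger factor pqm-1 (0.92, adjusted p = 0.0239) were called above as well. The FOXO factor daf-16 (0.59), the stress factor skn-1 (-0.02) and the heat shock factor hsf-1 (-0.61) did not pass the test (adjusted p = 0.0728, 0.958 and 0.0614). Of 28 autophagy genes 2 were called above and 6 below (median -0.11), with atg-2 (0.65) and sqst-1 above and atg-4.2 (-0.98) and atg-9 (-0.57, called in 10 of 24 settings) among those below (adjusted p = 0.0176, 0.00861 and 0.048), and lgg-1, which coats autophagosomes, had responses of -0.27 in eat-2 (adjusted p = 0.107) and -0.27 in N2 (adjusted p = 0.0446). The count below was 2 to 10 when 1 array was left out, and 1 after cyclic loess scaling.

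TGF-beta pathway genes, which set body size and dauer entry, gave 7 above and 1 below of 18 and a median interaction of 0.53. The Smad genes sma-3 (1.37), sma-4 (1.45) and daf-14 (1.22) were called above (adjusted p = 0.00921, 0.00825 and 0.0039), with responses of -0.47, -0.44 and -0.49 in eat-2 and rises of 0.91, 1.01 and 0.73 in N2. The receptor daf-1 was the 1 below (-0.50). With 1 array left out 5 to 8 were called above.

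Small heat shock proteins had negative median responses in both strains, -0.62 in eat-2 and -1.02 in N2, and the median interaction was -0.01. Of 12 genes 3 were called above and 1 below, against 13.1% above and 12.3% below in all genes. With 12 genes these counts are too small to set the list apart from all genes, and 8 of 12 had no called interaction. The gene hsp-16.41, a chaperone induced by heat, read 8.22, 8.06 and 8.05 on the eat-2 rapamycin arrays, 10.03, 10.01 and 9.60 on the eat-2 vehicle arrays, 6.79, 5.62 and 6.69 on the N2 rapamycin arrays and 8.74, 10.22 and 10.56 on the N2 vehicle arrays. Rapamycin and vehicle arrays did not overlap in either strain. It fell in both strains, by 1.77 in eat-2 and 3.47 in N2 (adjusted p = 0.0427 and 0.000571), and the difference between the falls, -1.71, had an adjusted p of 0.0631. The same held for hsp-16.2 (-1.77 and -2.98, interaction adjusted p = 0.137). Members called were hsp-12.1 (1.23), hsp-43 (1.00) and hsp-12.2 (1.00) above and sip-1 (-0.48) below (adjusted p = 0.00662, 0.017, 0.0398 and 0.0485), of which sip-1 passed in 9 of 24 settings. The counts when 1 array was left out were 2 to 5 above and 0 to 3 below. The probe sets that responded over 2-fold in the same direction in both strains and still had an interaction were those of the neuropeptide-like gene nlp-39 (-1.63 in eat-2, adjusted p = 0.126, and -4.10 in N2, adjusted p = 0.00101) and Y37D8A.3 (1.02 and 2.53, adjusted p = 0.0358 and 0.000139).

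Neuropeptide genes shared a sign more often than they passed the test. Of 59 genes 56 had a positive interaction, with a median of 0.69 from median responses of -0.32 in eat-2 and 0.40 in N2, against 7885 positive of 17118 genes in all, but 9 were called above (15.3%) and 1 below. The count above was 2 (without eat-2 vehicle array 2 or N2 rapamycin array 3) to 44 (without N2 vehicle array 2), so it rests on single arrays. Examples above were flp-11 (1.26), nlp-9 (1.41) and nlp-2 (1.5, adjusted p = 0.0395, 0.0157 and 0.0352). Tissue marker lists had positive medians too: the median interaction was 0.56 for 20 intestine genes (6 above, 0 below), 0.71 for 18 pharynx genes (3 and 0), 0.32 for 33 muscle genes (1 and 0) and 0.19 for 34 neuron genes (5 and 0). Without N2 vehicle array 2 these counts were 9, 11, 9 and 12 above, and after median centring the medians were 0.38, 0.53, 0.13 and 0. The part of such tissue shifts in the gene groups above was not tested.

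Protein synthesis and respiration genes gave few calls. Of 75 ribosomal protein genes 1 was called above (rpl-23A.1, 0.71) and 0 below, with a median interaction of 0.06 that was -0.12 after median centring. Of 36 translation factors 3 were called above, with iff-2 the largest (1.09), and 1 below (eif-2D, -0.64), and of 47 respiratory chain genes 1 above (asb-2, 0.48) and 2 below (sdha-2, -0.67, and cox-11, -0.67). The call of eif-2D passed in 9 of 24 settings. Without N2 vehicle array 2 the counts were 4 ribosomal protein genes above, 8 translation factors below and 3 respiratory chain genes above and 5 below, and respiratory chain calls were 6 above with cyclic loess and 8 below with median centring.

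**Figure D5:**
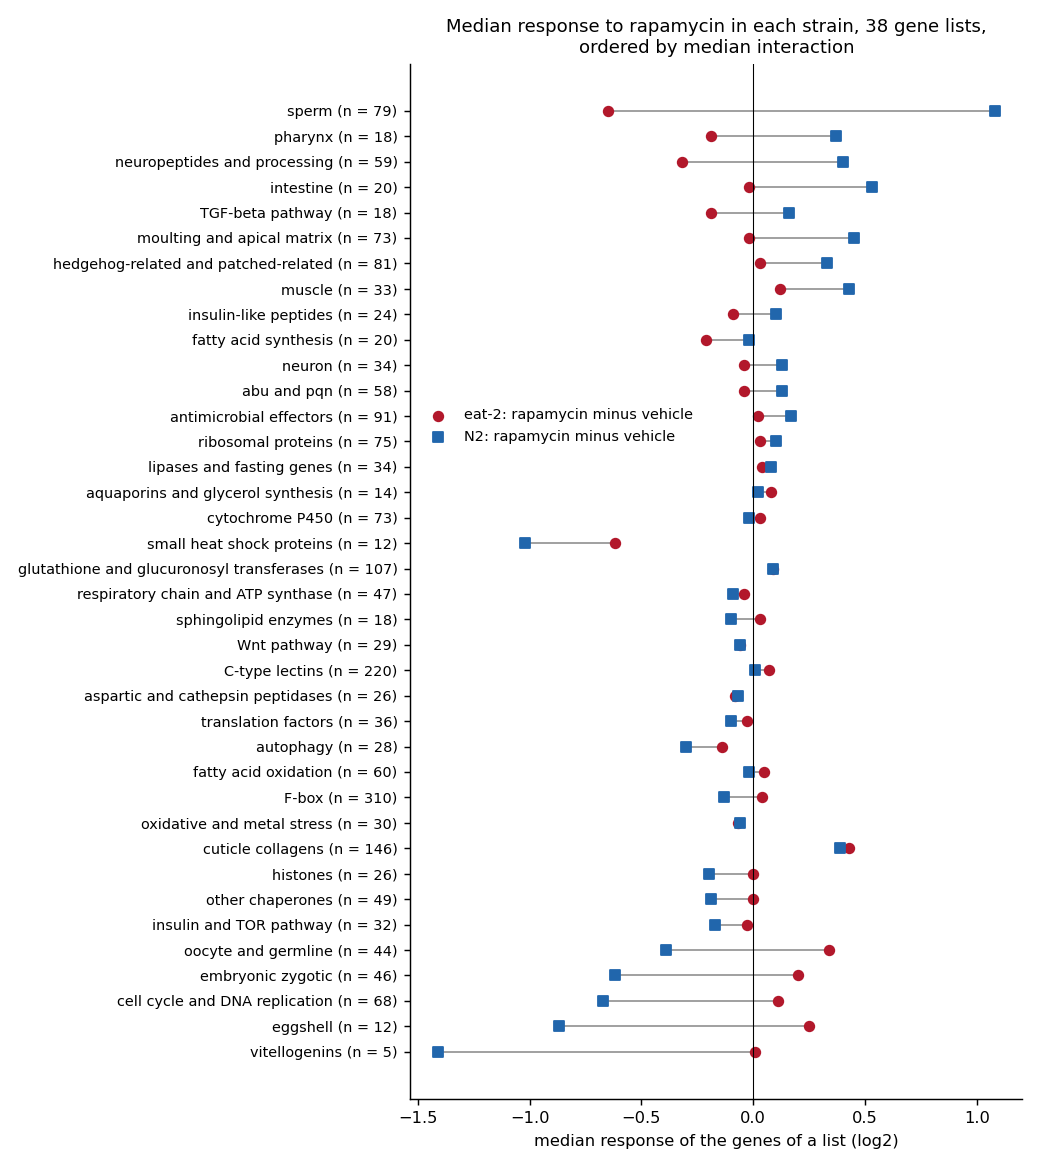
Median response to rapamycin (x axis, log2 of rapamycin minus vehicle) of the genes of 38 lists in eat-2 mutants (circles) and in N2 (squares), ordered by median interaction from highest at the top to lowest; the 2 pud genes are left out because they lie off the scale. Sperm genes open the widest gap upward (-0.65 in eat-2 and 1.08 in N2) and vitellogenins downward (0.01 and -1.41).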

How the data were processed

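Total RNA of whole worms was labelled with biotin and hybridised to Affymetrix C. elegans arrays. The authors deposited log2 signals, which they had computed in Affymetrix Expression Console by RMA (background correction, quantile normalisation and summary of each probe set). The versions of that program and of Transcriptome Analysis Console, with which they made comparisons, and the genome build are not given in the sources used here. The deposited log2 table holds 22625 probe sets. The 77 control probe sets were left out. This left 22548, of which 20766 name a single gene (17118 genes in all), 887 name several and 895 name no gene. Symbols came from the platform annotation, and of 20701 Entrez identifiers matched to the RefSeq table of WBcel235 0 had a changed symbol.

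Groups came from the sample labels. A limma fit of 4 group means on 12 arrays (lmFit and eBayes, 8 residual degrees of freedom) gave the interaction, the response in each strain and Benjamini-Hochberg adjusted p-values over all 22548 probe sets. The fit holds 1 variance per probe set, shared by the 4 groups, so the response in either strain is tested against spread in both. Tests were two-sided. Signals are relative to all other probe sets on an array, and the number of arrays limits the precision. Where a listed gene had several probe sets, the one with the highest mean stood for it. Genes were named by a rule: the 12 highest and 12 lowest interactions called by both thresholds, above the dimmest 25% in at least 1 group and with the same sign and an unadjusted p under 0.05 with any array left out, up to 3 called members of each list in each direction, up to 4 genes of each response pattern, and 38 genes chosen for their role. The 39 lists and these genes were chosen with earlier results of these data known. No list was tested.

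Alternatives were array weights, group weights, a trended robust prior, all 15 arrays, a replicate block, the dimmest 25% left out, median centring, cyclic loess, 1 probe set per gene, control probe sets kept, an unmoderated test, a fold of 1.5 and each array left out, and N2 vehicle array 3 as the only N2 vehicle array, which was added after seeing the data. The fit was also run on simulated data with equal spread in the 4 groups. That run leaves out the wider spread of the N2 vehicle arrays, so it does not test the fit under it. Promoter motifs were not analysed here. All fits used limma 3.58.1 and statmod 1.5.0 in R 4.3.3.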

Additional observations from a re-analysis of the deposited data

Results flagged for a closer look

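The responses of the strains to the same drug differed by a test of the difference itself in 5507 probe sets, as described above. In 190 of them the response passed the test in both strains with opposite signs, 115 lower in eat-2 and higher in N2 and 75 the other way round. Beyond the genes named by rule, and chosen after their values were seen, these include the collagen gene sqt-3, which shapes the body (-1.60 in eat-2 and 1.86 in N2, interaction adjusted p = 0.00382), let-4, a leucine-rich repeat protein of the apical matrix (-1.05 and 1.77, adjusted p = 0.000856), and Y47H10A.5 (-2.30 and 1.11, adjusted p = 7.32e-05). Same-direction responses passed in both strains in 9 probe sets with a called interaction and in 189 without one. A call of the interaction itself favours responses of opposite sign, so these counts describe the probe sets and test nothing.

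The control probe sets, which the comparisons leave out, held a signal too: 9 of 77 had an interaction at an adjusted p under 0.05 in the limma fit with controls kept, all 9 positive and for bacterial or phage transcripts, and 1 passed the study's threshold. Its part in the worm genes was not tested. Groups of 3 arrays are too small for a test of outlying samples.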

How the results depend on the processing

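Array weights, which gave N2 vehicle arrays 1 and 2 the lowest weights (0.3 and 0.247), raised the calls at the adjusted p to 8370, 4256 of them below. Median centring gave 4873 below at the adjusted p and 1879 below at the study's threshold, and a fold of 1.5 gave 6312 calls at that threshold. Leaving out 1 array gave 3267 to 8513 calls at the adjusted p, 1721 to 4224 above and 1546 to 4289 below, and 2448 to 4272 at the study's threshold, 1533 to 2483 above and 915 to 1789 below. Beside N2 vehicle array 2 and N2 rapamycin array 3, eat-2 rapamycin arrays 1 and 3 and eat-2 vehicle array 2 moved the first count by over 1.5 times (3440, 3609 and 3600 without each). The causes were not tested. Same-numbered arrays of different groups deviated from their group means with correlations of -0.354 to 0.454, 6 of 18 over 0.1. Arrays with different numbers gave -0.57 to 0.43, 9 of 36 over 0.1. No pairing by number was seen, but with 3 arrays per group these correlations cannot tell whether the numbers mark shared cultures or batches. A replicate block gave 5476 and 3133 calls. N2 vehicle array 3 as the only N2 vehicle array, chosen after seeing the data, gave 7515 and 3878, with that array assumed to vary like the other groups.

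Of 195 named probe sets with a called interaction, 116 were called in each of 24 settings, 37 in 13 to 17 and 17 in at most 12. Among those given above, eif-2D and sip-1 were called in 9 of 24, atg-9 in 10 of 24, nlp-39 and rict-1 in 11 of 24, col-159 and daf-18 in 12 of 24, hsp-12.2, cnc-6, irg-6 and rpl-23A.1 in 13 of 24, flp-11 in 14 of 24, and sdz-28, cdk-4, vit-1, col-19, nlp-2 and grl-15 in 15 of 24. Those in 16 were asb-2, cyp-13B2, clec-10 and raga-1, and those in 17 were cdt-1, pdk-1 and gpdh-1.

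Among the named probe sets, 4458 alternative values kept sign and side of the threshold, 616 lost the call, 31 gained it and 25 turned sign, these last all in genes with no call: let-363 (-0.13 with centring, -0.02 to 0.12 with 1 array out), nhr-23 (0.03 with array weights, 0.10 with cyclic loess, -0.21 to 0.14 with 1 array out), lgg-1 (-0.06 with array weights, -0.18 with centring, -0.09 to 0.07 with 1 array out), rsks-1 (-0.02 with centring), hsp-12.6 (-1.6 to 0.23 with 1 array out), fat-5 (-0.02 to 0.63), sod-3 (-0.82 to 0.41, and 0.41 with N2 vehicle array 3 alone) and skn-1 (0.13 with array weights, 0.12 with cyclic loess, -0.18 to 0.19 with 1 array out).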

Other observations

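Large families of secreted and detoxifying proteins were called at shares near or somewhat below those of all genes (13.1% above and 12.3% below in all genes). In both directions together the calls covered 20.5% of C-type lectins, 22% of antimicrobial effectors and 19.6% of transferases. They covered 19.2% of cytochrome P450 genes and 21.6% of F-box genes. These differences are small and depend on the arrays kept, as the counts below show. A larger share of lectins and F-box genes than of all genes lay at the dim end, where calls are harder to make. The share at the dim end was smaller than in all genes for antimicrobial effectors, transferases and P450 genes. C-type lectins, sugar-binding proteins many of which respond to infection, gave 24 above and 21 below of 220, with clec-5 (3.61) and clec-10 (2.60) above and clec-174 (-2.14) below (adjusted p = 0.0192, 0.0301 and 0.0212). Of 91 antimicrobial effectors 12 lay above and 8 below, with the saposin-like gene spp-4 among those below at -2.28 (adjusted p = 0.0124). Of 107 glutathione and glucuronosyl transferases 12 lay above and 9 below. The gene ugt-57 read 5.24, 5.18 and 5.70 on the eat-2 rapamycin arrays, 6.64, 5.96 and 6.25 on the eat-2 vehicle arrays, 7.47, 7.98 and 7.69 on the N2 rapamycin arrays and 5.88, 5.78 and 5.50 on the N2 vehicle arrays, with groups that did not overlap in either strain or on either medium and an interaction of 2.91 (SE 0.29, adjusted p = 0.000602), while ugt-63 had -1.98 (SE 0.254, adjusted p = 0.00168). Of 73 cytochrome P450 genes 4 lay above, with cyp-33B1 at 1.74, and 10 below, with cyp-13B2 at -2.14 and cyp-25A1 at -1.56 (adjusted p = 0.0192, 0.0277 and 0.00156). F-box genes, which pick targets for protein breakdown, gave 35 above and 32 below of 310, with fbxa-163 (-1.95 in eat-2 and 1.19 in N2) and fbxc-42 (1.26 and -1.69) as opposite cases (interaction adjusted p = 0.00122 and 0.00187). With 1 array left out the counts above and below were 17 to 34 and 10 to 29 for lectins, 7 to 22 and 3 to 12 for antimicrobial effectors, 8 to 28 and 6 to 17 for transferases, 4 to 10 and 5 to 10 for P450 genes and 18 to 52 and 15 to 70 for F-box genes, with the highest transferase, antimicrobial and P450 counts above and F-box count below without N2 vehicle array 2. Median centring gave 48 lectins and 66 F-box genes below. Array weights gave 50 F-box genes above and 87 below, in a setting where calls over all probe sets rose to 8370.

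Shares varied among the smaller lists, with 51.7% of the Wnt pathway genes and 46.2% of the histones called. Some histone probe sets can bind related genes, so the histone calls may not all be separate. Above and below were 10 and 2 of 58 abu and pqn genes, 5 and 7 of 26 histones (his-71, an H3.3 gene, 1.20, and his-67, an H4 gene, -1.72), 1 and 10 of 49 other chaperones, 2 and 0 of 24 insulin-like peptides (ins-31, near the dim end, 2.31, and ins-4, 1.52), 8 and 7 of 29 Wnt pathway genes (the beta-catenin bar-1, 1.02, and the ligand mom-2, -1.23), 4 and 4 of 26 peptidases, 2 and 4 of 30 oxidative and metal stress genes, 1 and 3 of 18 sphingolipid enzymes and 3 and 2 of 14 aquaporin and glycerol genes. These counts, when 1 array was left out, were 5 to 18 and 1 to 3, 4 to 6 and 4 to 8, 1 to 3 and 6 to 13, 2 to 6 above, 5 to 11 and 2 to 10, 1 to 4 and 2 to 5, 0 to 5 and 2 to 5, 1 to 3 and 1 to 4, and 2 to 4 and 1 to 2 in the same order of lists. In the sphingolipid list the 1 above was the ceramide glucosyltransferase cgt-1 (2.00 (SE 0.269, adjusted p = 0.00194)), with responses of -0.53 in eat-2 and 1.47 in N2. The stress genes sod-3 and hsp-12.6 had interactions of -0.41 and -0.57 that did not pass the test (adjusted p = 0.73 and 0.706), with N2 vehicle SDs of 1.4 and 1.9.

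The neighbours of called genes on the chromosome were counted as a description. Of 1209 genes called above by both rules 281 (23.2%) had an adjacent gene called above, against 12.7% of all 15653 placed genes, and of 725 called below 126 (17.4%) had an adjacent gene called below, against 7.96%. Neighbours include duplicated family members that can share probes. Of 429 genes with several probe sets of which at least 1 was called, 411 (95.8%) had the same sign on all of them.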
